A study of Mus musculus with 4 samples.

Results

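The developmental transcription factor families examined here are the Hox, Fox, Sox, Gata, Pax, Tbx, Irx, Lhx, Lmo and Pou genes and the Six-family genes of MLE12 cells. Members were picked by gene symbol alone, but with earlier results of these data known. Of the 18018 rows of the deposited table, 90 carry such a symbol. The symbol rule left out Foxm1. In the reference annotation 168 genes carry a symbol of these families, so 53.6% of them had a row, against 63.4% of all protein-coding genes of that annotation. RNA sequencing of polyA RNA had been performed on 2 libraries of Lmnb1 KD MLE12 cells and on 2 libraries of control MLE12 cells. MLE12 is a mouse lung epithelial line immortalized with a viral T antigen under the surfactant protein C promoter. Both groups were kept in puromycin at 2 µg/ml as stable lines, which in the study were made with lentiviral shRNA against lamin B1 or with a control construct. The labels do not say whether the libraries of a group came from separate cultures.

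These families encode DNA-binding proteins, and in the case of Lmo LIM-only adaptors of such proteins, that set position and cell fate in the embryo. Many of their genes are known targets of the polycomb repressive complexes, which keep them silent in cells that do not use them. In the developing lung, Foxa1, Foxa2 and Gata6 are known regulators of the epithelium, Sox9 marks its distal buds, and Hoxa5 acts mainly in the mesenchyme.

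The value available for each gene was its mean level, the mean normalized read count over all 4 libraries. It pools Lmnb1 KD and control cells, so it shows which members these cells transcribed and carries neither an SD nor a difference between the groups. No comparison of Lmnb1 KD with control cells is given, because the remaining columns hold the fold changes and p-values of the authors' own comparison and were not used. The depth behind the means could be read from their lowest values. The 56 lowest distinct values are the 56 sums that 5 reads spread over 4 libraries can give. Each row with a value therefore held at least 5 reads, and a mean level of 1 stands for about 4 reads in all. The size factors of the libraries lay between 0.934 and 1.07, and all rows together held between 83691334 and 96283603 reads. For the 48 members under a mean level of 100 the reads in each library were recovered. The mean levels do not show which libraries are Lmnb1 KD and which are control. These libraries are named a to d here, from the largest to the smallest size factor. Intervals are exact Poisson intervals at 95% on the summed reads and cover counting error only. In bulk samples, fewer cells that transcribe a gene and less RNA per cell cannot be told apart.

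Markers of the labelled cell type were present in part. Nkx2-1, the transcription factor that defines lung epithelium, had a mean level of 2667, and the surfactant genes Sftpb and Sftpc had mean levels of 6189 and 893. Of 8 alveolar type II markers 5 had a row and 3 reached a mean level of 100. Abca3 stood at 2546, Napsa at 11.2 and Sftpa1 at 1.57, while Sftpd, Lamp3 and Slc34a2 had no row. All 5 epithelial markers had a row, with mean levels between 12.9 for Krt18 and 31695 for Krt19. A row was present for 1 of 3 club cell, 1 of 4 neuroendocrine, 1 of 4 immune and 3 of 4 endothelial markers, the highest being Tek at 171. All 4 fibroblast markers had a row, with Dcn at 12256, Col1a1 at 131, Col1a2 at 4.34 and Col3a1 at 1.40. Lmnb1, the targeted gene, had a mean level of 3946 over both groups, which is no check of the knockdown.

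Most family genes were transcribed at low levels. Of the 90 members, 13 had a mean level of at least 1000, 29 lay between 100 and 1000, 25 between 10 and 100, and 23 under 10. A mean level of 100 was reached by 46.7% of the members and by 71.5% of the 14144 protein-coding rows with a transcript length. A mean level of 2 was reached by 84 members, or 93.3%, and by 95.9% of the protein-coding rows. The median was 81.8 in the members and 597 in the protein-coding rows. To compare genes with each other, the mean level was divided by the length of the longest annotated transcript in kilobases. On that scale 20 members, or 22.2%, lay above the median of the protein-coding rows, which was 167 per kilobase. The 10 highest members held 58.4% of the summed level per kilobase of all members.

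**Figure D1:**
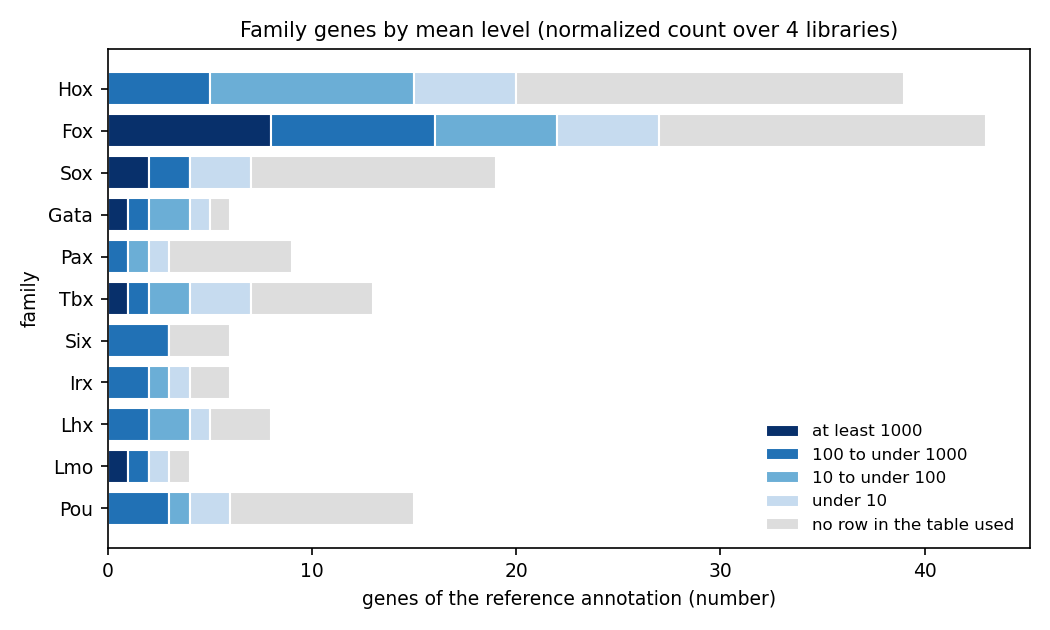
Each horizontal bar counts the genes of 1 family in the reference annotation, split by mean level (normalized count over 4 libraries); the part with no row in the table used is shown as well. Fox and Hox have the most genes, 43 and 39, and 8 of the 13 members at or above 1000 are Fox genes.

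The forkhead genes, the largest of the 11 families, had the most members listed and the highest summed level per kilobase. Of 43 Fox genes 27 had a row, 16 reached a mean level of 100, and together they held 41.0% of the summed level per kilobase of all members. Foxk2 led the family with a mean level of 3436, or 683 per kilobase, and its relative Foxk1 stood at 197 per kilobase. Both encode repressors known for their part in metabolism and autophagy. Foxp1, a repressor known from lung, heart and lymphocytes, stood at 443 per kilobase, and its relatives Foxp4 and Foxp2 at 263 and 84.3. Exons of Foxp1 and, outside this group, of Foxo1, Foxj2, Foxf2 and Foxf1 overlap those of other genes. Foxp3, the regulator of regulatory T cells, stood at 2.18 per kilobase from 35 reads in all, and its exons overlap those of neighbouring genes. The level per kilobase of Foxp1 was 203 times that of Foxp3.

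The Foxo genes, most of whose products are held out of the nucleus by insulin and AKT signaling, were all above a mean level of 100. Foxo4 and Foxo3 stood at 416 and 357 per kilobase, Foxo6 at 148 and Foxo1 at 48.2. Foxj3 and Foxj2 stood at 383 and 242 per kilobase. Foxj1, the regulator of motile cilia, had 60 reads in all and a mean level of 14.7 (95% interval 11.2 to 19.0).

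Among the pioneer factors of the endoderm, Foxa2 had a mean level of 814, or 382 per kilobase, and Foxa1 a mean level of 633, or 199 per kilobase. The third gene of this group, Foxa3, known from liver, had 14 reads in all and a mean level of 3.55 (95% interval 1.94 to 5.96). Per kilobase, Foxa1 stood 114 times and Foxa2 219 times as high as Foxa3. Foxf1, a factor of lung mesenchyme, had 6 reads in all and a mean level of 1.41, or 0.931 without library b, while its relative Foxf2 had a mean level of 83.5. Foxd1, a factor of stromal cells in the kidney, had a mean level of 223.

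Gata6 and Lmo4 were the highest members per kilobase. Lmo4, a LIM-only adaptor of epithelial cells, had a mean level of 3023, or 1811 per kilobase, and held 94.1% of the summed level per kilobase of its family. Lmo2, a partner of Gata factors in blood and endothelium, stood at 114 per kilobase, and Lmo3 had 5 reads in all. Gata6, an endodermal factor of the lung epithelium, had a mean level of 3077, or 813 per kilobase. Its relative Gata4, known from foregut and heart, stood at 201 per kilobase, so that Gata6 was 4.05 times as high. The Gata genes known from blood were lower, with Gata2 at 20.4, Gata3 at 5.89 and Gata1 at 2.30 per kilobase. Gata5 had no row in the table used here. Exons of Gata6 and Gata3 overlap those of other genes, over 93 bases in Gata6.

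**Figure D2:**
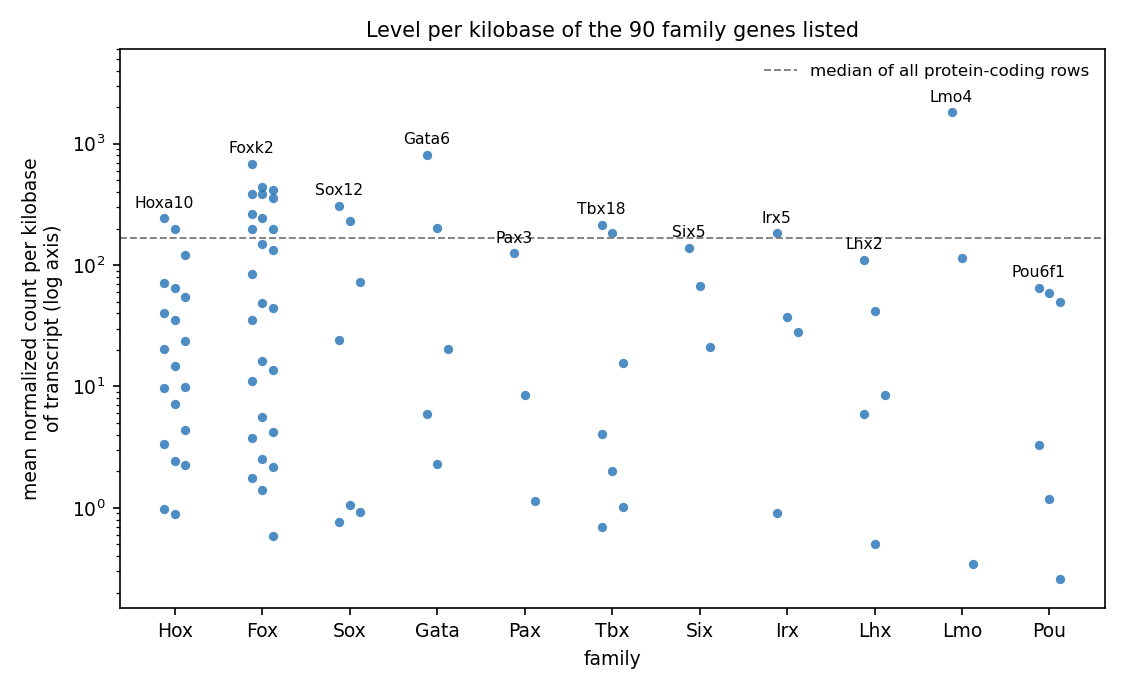
Each point is 1 of the 90 listed family genes, placed by family and by its mean normalized count per kilobase of transcript on a log axis; the dashed line marks the median of the protein-coding rows, 167. The highest gene of each family is named, and 20 points lie above the line.

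Among the Hox genes, which give cells their position along the body axis, clusters A and B held nearly all of the signal. Of 39 Hox genes 20 had a row. Cluster A on chromosome 6 had 10 of 11 genes listed and held 63.3% of the summed Hox level per kilobase. Cluster B on chromosome 11 (96194316 to 96368256, mm10) had 9 of 10 genes listed and held 36.4%. None of the 9 genes of cluster C on chromosome 15 had a row, and of the 9 genes of cluster D on chromosome 2 only Hoxd8 had one. Hoxd8 had 27 reads in all and a mean level of 6.40 (95% interval 4.22 to 9.31). Library a held 19 of these reads, and without it the mean level was 2.64.

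Levels were uneven along both clusters. In cluster A, Hoxa10, a gene of the posterior body, stood highest with a mean level of 622, or 243 per kilobase. Its neighbour Hoxa9 stood at 23.7 per kilobase, so that Hoxa10 was 10.2 times as high. The gap was smaller on other scales. Hoxa9 had a mean level of 76.4 not divided by length, and per kilobase of coding length Hoxa10 and Hoxa9 stood at 498 and 93.9. On the other side of Hoxa10, Hoxa11 had no row. Hoxa13, the last gene of the cluster, had 9 reads in all and stood at 0.887 per kilobase. Of these reads 8 came from 1 library (a), and without it the mean level of Hoxa13 was 0.350, against 2.12 over all libraries. Hoxa6, Hoxa5 and Hoxa4 stood at 122, 64.7 and 54.9 per kilobase, Hoxa2 at 20.2, Hoxa7 at 14.7 and Hoxa3 at 9.88. Exons of Hoxa3, Hoxa2, Hoxa7, Hoxa9 and Hoxa4 overlap those of other genes.

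In cluster B, Hoxb4, known for its part in blood stem cells, stood highest with a mean level of 513. Both of its neighbours were low, Hoxb3 at 7.23 and Hoxb5 at 3.38 per kilobase, and per kilobase Hoxb4 stood 27.7 and 59.3 times as high as these. Hoxb3 had 92 reads in all and a mean level of 23.1 (95% interval 18.6 to 28.3). Hoxb5 had 38 reads in all and a mean level of 9.40 (95% interval 6.65 to 12.9), or 6.85 without library b. After Hoxb4, Hoxb9 was next at 71.0 per kilobase, which was 16.3 times the level of Hoxb8 beside it. Hoxb13, which lies apart from the rest of the cluster and is known from prostate and hindgut, stood at 40.3 per kilobase. Hoxb6 stood at 9.63, Hoxb8 at 4.35 and Hoxb2 at 2.24 per kilobase. Hoxb7, at 0.970 per kilobase, had 5 reads in all and a mean level of 1.25 (95% interval 0.407 to 2.92), which became 0.621 without library c. Exons of Hoxb2, Hoxb3 and Hoxb5 overlap antisense genes.

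**Figure D3:**
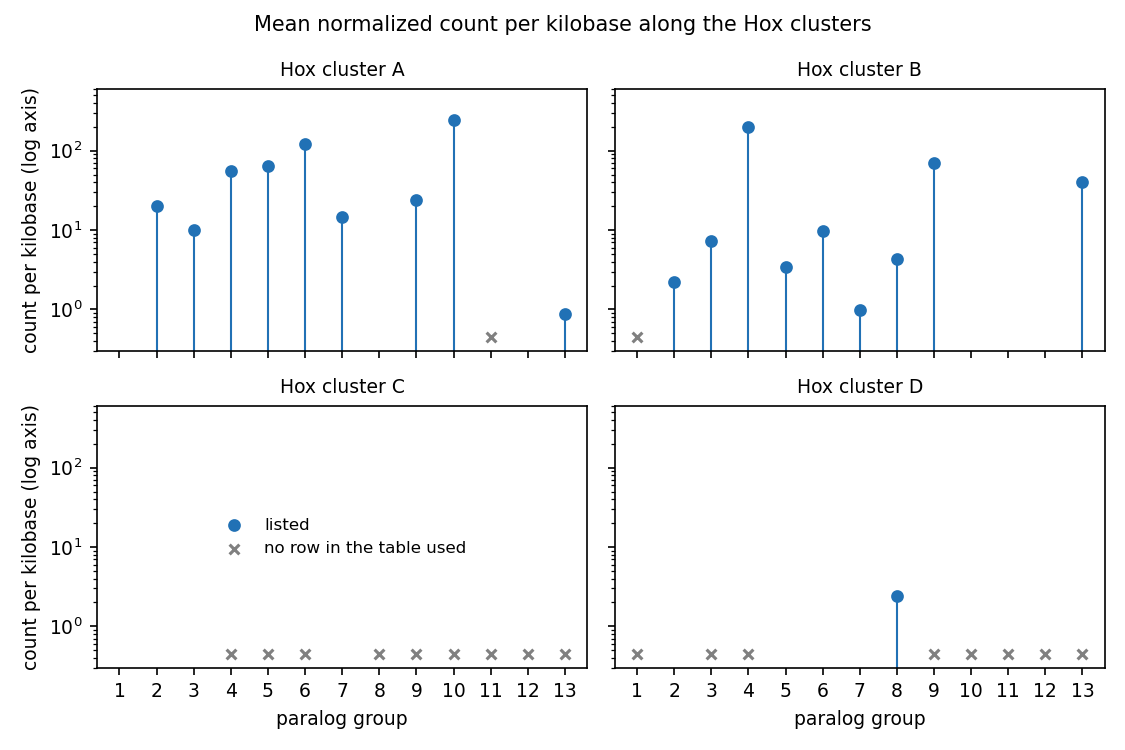
The 4 panels give the Hox clusters, with the genes in paralog order on the horizontal axis and the mean normalized count per kilobase on a log axis; genes with no row are marked at the foot of the panel, and not every listed gene is drawn. Hoxa10 at 243 and Hoxb4, 27.7 times as high as Hoxb3, stand above their neighbours, and cluster C holds no point.

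Of the Hox cofactors of the TALE homeodomain class, which bind DNA together with Hox proteins, 8 of 9 had a row. Pbx2, Pbx3 and Pknox1 were highest at 479, 354 and 156 per kilobase, while Meis1 stood at 14.5 and Pknox2 had no row.

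Among the Sox genes, which encode HMG box factors, 7 of 19 had a row. Sox12 and Sox4, which belong to the same subgroup, stood at 309 and 232 per kilobase. Exons of Sox4 overlap an antisense gene over 2616 bases, those of Sox5 over 1330 and those of Sox8 over 329. Sox9 stood at 72.9 and Sox5 at 24.4 per kilobase, and Sox13, Sox8 and Sox18 each had a mean level under 4, with 15, 11 and 5 reads in all. Library c held 11 reads of Sox13, whose mean level was 3.93 and became 1.39 without that library. Sox2, the factor of the proximal airway, and Sox17 had no row.

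The T-box genes were led by Tbx18 and Tbx15, close relatives known from mesenchyme, at 215 and 183 per kilobase. Exons of Tbx18 overlap an antisense gene over 970 bases, and those of Tbx3 over 115. Tbx2 and Tbx3, which are known from lung mesenchyme, had 29 and 14 reads in all and stood at 2.03 and 0.699 per kilobase. Tbx18 was thus 106 times as high as Tbx2. Tbx6, a factor of presomitic mesoderm, stood at 15.7 per kilobase, and Tbx4 and Tbx5, the other lung mesenchyme genes of the family, had no row.

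Of the Pax genes, Pax3, known from neural crest and muscle precursors, had a mean level of 482, or 125 per kilobase, which made up 92.8% of the summed level per kilobase of its family. Pax9 stood at 8.57 and Pax6 at 1.15 per kilobase, and Pax8 had no row. In Pax9, 189 exon bases overlap the antisense gene Slc25a21. Of the Six-family genes, Six5 and Six4 stood at 139 and 21.1 per kilobase. Their protein partners were transcribed as well, with Eya2, Eya3 and Eya1 at 618, 413 and 309 per kilobase, while the corepressor genes Dach1 and Dach2 had mean levels of 3.88 and 3.35.

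Irx5, Irx3 and Irx2 stood at 184, 37.7 and 28.0 per kilobase, and Irx1 had 9 reads in all and a mean level of 2.16, or 1.33 without library a. An antisense gene overlaps exons of Irx3 over 124 bases. The LIM-homeodomain genes were led by Lhx2 and Lhx1 at 110 and 42.2 per kilobase, followed by Lhx9 at 8.48. The LIM domain scaffold Ldb1 stood at 1927 and its partners Ssbp3 and Ssbp4 at 1391 and 890 per kilobase, while Ldb2 and Isl1 had no row. Of the Pou genes, Pou6f1, Pou2f1 and Pou2f3 stood at 65.2, 58.7 and 49.9 per kilobase. Exons of Pou2f1 overlap those of Cd247 over 3007 bases. Pou2f3 is the regulator of tuft cells, and Pou2af1, a coactivator of Pou2 factors, had no row.

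Other partners and the repressive complex were listed nearly in full. All 6 genes of the Groucho family, which includes corepressors that bind several of these factors, had a row. Aes was highest at 3667 per kilobase, and Tle3 and Tle4 stood at 245 and 210. Of the Friend of Gata cofactors, Zfpm1 stood at 577 and Zfpm2 at 3.18 per kilobase. All 11 genes for subunits of polycomb repressive complex 2 had a row and a mean level of at least 100. Rbbp7, Rbbp4 and Suz12 were highest at 4648, 2368 and 2318 per kilobase, and the catalytic subunits Ezh2 and Ezh1 stood at 2280 and 420. Of 16 lung epithelial transcription factors outside these families 14 had a row, led by Nkx2-1, Hopx and Etv4 at 949, 691 and 661 per kilobase. A mean level of 100 was reached by 8 of the 16, and Elf5 and Ehf had no row.

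Promoter windows of 300 bases, 250 before and 50 after the annotated start, were taken from RefSeq (GRCm38.p6) and matched 59 of the 90 members. For a gene with several annotated starts, the window nearest to the gene start in the reference annotation was taken. CpG-rich promoters are a common feature of polycomb targets as well as of genes used in every cell. The 6 windows printed here are those of the highest Fox and Hox genes with a window, the endodermal factor Foxa2, and 2 lower Fox genes that were picked after their values were seen. They run 5′ to 3′ on the strand of the gene, and capitals mark CG dinucleotides.
Foxk2, chr11:121259737-121260036, plus strand: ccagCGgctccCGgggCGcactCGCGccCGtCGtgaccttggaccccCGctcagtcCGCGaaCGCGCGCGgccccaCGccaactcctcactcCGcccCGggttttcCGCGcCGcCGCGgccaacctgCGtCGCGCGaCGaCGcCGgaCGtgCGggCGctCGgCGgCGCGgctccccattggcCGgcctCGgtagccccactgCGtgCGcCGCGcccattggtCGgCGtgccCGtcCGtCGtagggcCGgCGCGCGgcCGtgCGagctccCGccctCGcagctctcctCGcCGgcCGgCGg
Foxa2, chr2:148046920-148047219, minus strand: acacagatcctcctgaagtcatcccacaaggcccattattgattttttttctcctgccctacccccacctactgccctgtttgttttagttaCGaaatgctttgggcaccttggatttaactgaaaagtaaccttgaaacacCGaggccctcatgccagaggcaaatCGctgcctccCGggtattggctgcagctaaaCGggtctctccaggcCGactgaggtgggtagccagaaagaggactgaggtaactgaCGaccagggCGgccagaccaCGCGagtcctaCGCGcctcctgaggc
Hoxa10, chr6:52240805-52241104, minus strand: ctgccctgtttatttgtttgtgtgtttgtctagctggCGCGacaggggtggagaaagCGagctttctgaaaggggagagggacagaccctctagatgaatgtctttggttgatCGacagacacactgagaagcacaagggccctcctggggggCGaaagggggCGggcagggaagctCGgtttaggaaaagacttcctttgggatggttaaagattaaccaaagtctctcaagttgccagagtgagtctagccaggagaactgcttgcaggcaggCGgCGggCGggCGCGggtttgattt
Hoxb4, chr11:96318017-96318316, plus strand: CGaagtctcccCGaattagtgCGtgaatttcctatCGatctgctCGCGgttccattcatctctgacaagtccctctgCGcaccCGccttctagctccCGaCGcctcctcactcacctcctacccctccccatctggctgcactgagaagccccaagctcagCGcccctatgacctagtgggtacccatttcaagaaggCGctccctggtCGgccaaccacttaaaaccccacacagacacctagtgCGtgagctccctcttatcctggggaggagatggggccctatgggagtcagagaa
Foxr2, chrX:153118538-153118837, plus strand: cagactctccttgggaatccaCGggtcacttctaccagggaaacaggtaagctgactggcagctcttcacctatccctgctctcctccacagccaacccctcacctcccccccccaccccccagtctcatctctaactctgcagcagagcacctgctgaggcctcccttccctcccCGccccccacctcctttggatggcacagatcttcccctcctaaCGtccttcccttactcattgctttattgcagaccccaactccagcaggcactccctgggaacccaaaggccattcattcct
Foxp3, chrX:7579426-7579725, plus strand: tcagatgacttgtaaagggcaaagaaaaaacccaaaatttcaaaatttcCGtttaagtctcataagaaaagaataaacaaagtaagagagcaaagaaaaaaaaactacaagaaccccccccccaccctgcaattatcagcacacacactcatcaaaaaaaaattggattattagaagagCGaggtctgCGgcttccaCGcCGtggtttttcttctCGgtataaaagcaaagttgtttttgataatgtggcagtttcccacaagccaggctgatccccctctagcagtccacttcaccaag

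The window of Foxk2 held 59 CG dinucleotides, 1.28 times the number its C and G content predicts. Those of Foxa2, Hoxa10 and Hoxb4 held 12, 12 and 14, with ratios of 0.548, 0.596 and 0.593. The windows of Foxr2 and Foxp3 held 3 and 6, with ratios of 0.151 and 0.497. Other low Fox genes had richer windows, with 26 CG dinucleotides in Foxd2, 22 in Foxa3 and 32 in Foxc1 and ratios of 0.758, 0.619 and 0.943. More than 1 start is annotated for Foxa2, Hoxa10 and Foxp3, and these cells may use another than the one shown.

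A window counted as CpG-rich where this ratio was at least 0.6 and the GC content at least 50%. No other cut was tried, and the shares of members and of protein-coding rows may both shift with it. The shares and the correlation given here describe only the window taken for each gene, and these cells may use another start. By that rule 36 of the 59 members (61.0%) had a CpG-rich window, against 6862 of 10387 protein-coding rows (66.1%). Of members at or above a mean level of 100, 20 of 27 (74.1%) were CpG-rich, against 76.0% of protein-coding rows at that level. Of members under 10, 8 of 14 (57.1%) were CpG-rich, against 29.2% of protein-coding rows under 10. In the class between, from 10 to 100, the share was 8 of 18 members (44.4%). For protein-coding rows no share was computed in that class, and no difference between members and other rows was tested. Of the family genes with no row, 29 of 53 (54.7%) had such a window. Over the 59 members Spearman's rho between the ratio and the mean level was 0.34, a description over genes that share libraries and chromosomal clusters. The letters TATAAA, searched on both strands, were found in 4 of 59 members (6.78%) and in 7.48% of protein-coding rows. The window of Foxp3 held them.

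**Figure D4:**
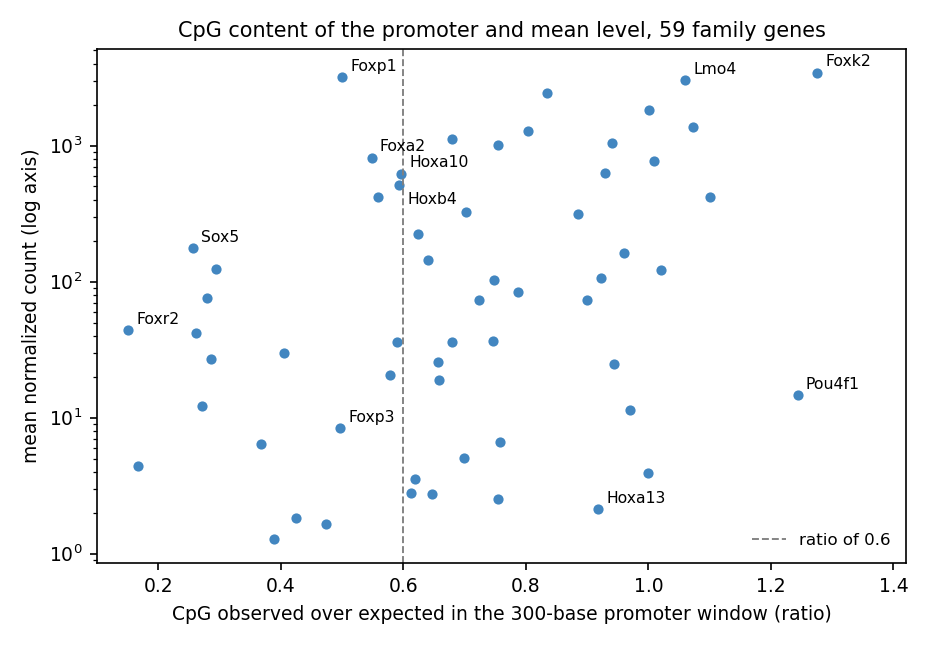
Each point is 1 of the 59 family genes with a promoter window, placed by the ratio of observed to expected CG dinucleotides and by mean level (normalized count, log axis). Foxk2 lies at the upper right with 1.28 and 3436, and Foxr2 at the far left with 0.151 and 44.1.

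Reads in single libraries could be given for the 48 members under a mean level of 100. Of these members 25 had at least 40 reads in all, and their highest library exceeded their lowest by a median of 1.92 times after division by the size factors (1.14 to 7.26). Hoxa9 was the most even, with 76, 81, 74 and 75 reads in libraries a to d. Gata2 was also even, with 64, 81, 73 and 73 reads. Irx2 ranged wider, with 120, 86, 55 and 40 reads, as did Gata3 with 13, 10, 24 and 27. The widest was Foxr2, a forkhead gene known from testis and from tumors, with 90, 72, 11 and 12 reads, a ratio of 7.26. A ratio above 3 was found in 5 of the 25 members. They were Foxr2 with 185 reads in all, and Lhx6, Gata3, Foxn1 and Hoxb8 with 83, 74, 48 and 45. Counting error widens such a ratio when reads are few, and the ratio it alone would give was not computed. The share of rows with a ratio above 3 among all genes was not computed either, so the count of 5 shows nothing particular to these families. The other 23 members had fewer than 40 reads, too few for a ratio between libraries to be read.

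**Figure D5:**
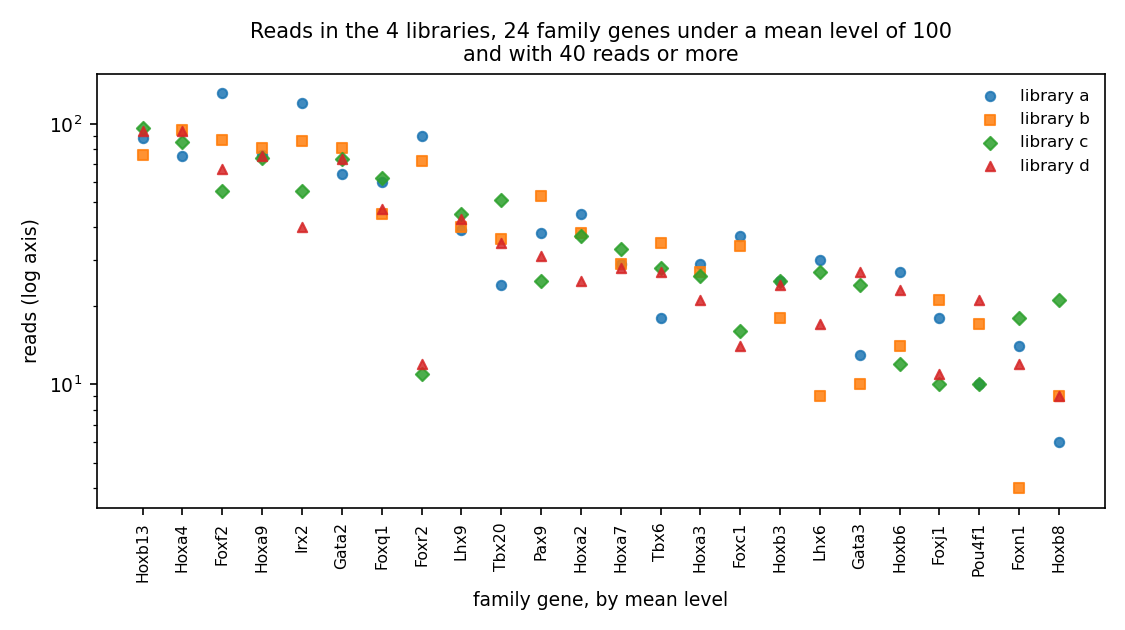
Reads in each of the 4 libraries (log axis; marker shape gives library a to d) for 24 of the 25 family genes under a mean level of 100 with at least 40 reads in all, ordered by mean level. The 4 markers of Hoxa9 lie between 74 and 81 reads, and those of Foxr2 between 11 and 90.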

How the data were processed

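RNA-seq reads of 2 Lmnb1 KD and 2 control MLE12 libraries, sequenced on Ion Torrent, were trimmed with Reaper, aligned with STAR to mm10 and normalized with DESeq2 by the authors. Neither the labels nor the methods name tool versions, the counting tool, the gene annotation or the use of strand. The deposited table gives 1 signal value per gene, the mean normalized count over all libraries, for 17906 of 18018 rows. Its 3 other value columns hold the authors' own comparison (log2 fold change, p-value and adjusted p-value) and were not used. The planned test of Lmnb1 KD against control was not made. No value of a single library is in a column of its own.

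Rows were matched by Ensembl ID (98.8% of rows with a value) to GENCODE M21 on GRCm38, the assembly of mm10, for transcript length, exon overlap and position. Because strand use in counting is not known, reads of the 29 members with an overlapping exon may belong in part to the other gene. Not all of these members are marked in the text above. The level per kilobase is the mean level over the length of the longest transcript. Promoter windows came from RefSeq.

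Size factors and whole reads were recovered from the means, an analysis chosen after seeing the data. All 4466 rows under 10 and all 3056 rows between 10 and 100 had exactly 1 set of whole reads that gave the mean within 1 unit of its 12th significant digit, and the solver was tested on simulated data.

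Genes were named by rule: up to 3 of highest level per kilobase in each family and list, every Hox gene, and the 10 of highest mean level. Not every gene so named is reported here. Other named genes, among them Foxa3, Foxp3, Foxj1, Foxf1 and Foxr2, were chosen after their values were seen. The members and lists were chosen with earlier results of these data known. A mean level of 2, the minimum of the study's methods, served as the detection level. Python 3.11.15, numpy 2.4.6, pandas 2.3.3, scipy 1.17.1 and matplotlib 3.10.9 were used.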

Additional observations from a re-analysis of the deposited data

How the results depend on the processing

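The number of members at or above the detection level was 84 at a minimum of 2, and 90, 74 and 67 at minimums of 1, 5 and 10. It was 50 at a minimum of 50 and 42 at a minimum of 100, since more rows fall below a higher minimum. As a share of all 168 reference genes of the families it was 50%, against 93.3% of the rows listed. The median level of 81.8 became 96.2 over rows at or above 2. Of the 20 highest members per kilobase, 19 were also among the 20 highest by coding length and 18 among the 20 highest when levels were not divided by length. The Fox family held 41.0% of the summed level per kilobase, 39.4% by coding length (added after seeing the data), 53.4% without division by length and 64.4% without the highest member of each family. It led the families on all 3 length scales, while the places after it changed between Lmo, Gata, Hox and Sox. Leaving out each of the unlabelled libraries in turn (added after seeing the data) moved the mean level by over 1.5 times in 7 of the 48 members with recovered reads, among them Hoxa13 (2.12, and 0.350 without library a) and Hoxd8 (6.40, and 2.64 without library a). No paired analysis was possible because the values used are means over all libraries, with no test between groups. For the same reason leaving out each labelled replicate, other normalizations, other tests and other filters of the comparison of Lmnb1 KD with control were not run.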

Other observations

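Some members with few reads were spread unevenly over the 4 libraries, whose groups the values do not show. Foxr2 had 90 and 72 reads in libraries a and b, and 11 and 12 in libraries c and d. Foxp3 had 16, 14, 3 and 2 reads in libraries a to d, and Foxc1 37, 34, 16 and 14. After division by the size factors, the highest library of Foxc1 exceeded its lowest by 2.30 times, against the median of 1.92 given above. Hoxd8 had 19, 5, 2 and 1 reads, and Hoxa13 8, 0, 1 and 0, with most of them in library a in both. Sox13 had 0, 1, 11 and 3 reads, and Hoxb8 6, 9, 21 and 9, with the most in library c in both. Foxn1 had 14, 4, 18 and 12 reads and Lhx6 30, 9, 27 and 17, with the fewest in library b in both. Foxp3, Hoxd8, Hoxa13 and Sox13 had fewer than 40 reads in all, too few for a ratio between libraries to be read. All genes named here were picked for their spread after their values were seen. The libraries were not assigned to Lmnb1 KD or control cells. The mean levels alone do not give their groups, and the columns of the authors' comparison were not used. No test was made, of groups or against counting error.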
